A study of Mus musculus with 2 samples.

Results

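Molecular chaperones and protein disulfide isomerases were examined by RNA-seq of the mouse uterus, taken whole, at gestational day 4. Members were taken by gene symbol alone: the Hspa, Hspb, Hsp90, Dnaj, Cct and Pdia families together with Hspd1, Hspe1 and Hsph1. This gave 85 of the 20634 genes listed in the deposited tables, by a rule that uses no measured value. The tables hold 2 libraries of total RNA, 1 from uteri labelled Mettl3 f/f and 1 from uteri labelled Mettl3 ed/ed, written f/f and ed/ed from here on. The females were 6 to 8 weeks old, had been mated with fertile males, and were killed on day 4 where the day of the vaginal plug counts as day 1. Mettl3 encodes the catalytic subunit of the complex that writes N6-methyladenosine on RNA, and the labels name neither the driver nor the cells behind the ed allele, nor the number of animals in each library.

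With 1 library per genotype no spread between animals could be measured, so no test was made and each difference is between these 2 libraries. Values are FPKM, fragment numbers divided by transcript length and library size, and so can be set side by side between genes. Ratios are log2 of ed/ed over f/f after 1 FPKM is added to both, a scale that understates the difference where levels are low. The words called higher and called lower stand for a difference of at least 2-fold on that scale. The comparison covers genes that reached 1 FPKM in at least 1 library, 12165 in all, among them 74 of the 85 members. The median log2 ratio of these 12165 genes was -0.26, and the 4 other ways of scaling multiplied ed/ed by a factor of 0.09 to 0.30 on the log2 scale, which moves low genes by less because 1 FPKM is added, so families are also given relative to that median. As deposited 326 genes were called higher and 757 lower, whereas scaling by the median ratio gave 600 and 387. Depth, estimated from the spacing of low values, was about 18.5 M fragments for f/f and 17.4 M for ed/ed. Mettl3 itself was at 10.6 FPKM and 10.2 FPKM (f/f, then ed/ed, as in every pair of values below), so its transcript level did not separate the libraries.

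Chaperones keep newly made and damaged proteins from aggregating. In the cytosol Hsp70 proteins bind exposed hydrophobic stretches in a cycle driven by ATP, J proteins (the Dnaj genes) deliver clients and stimulate the ATPase, and exchange factors of the Hsp110 group release ADP. Hsp90 then takes over clients such as kinases and steroid hormone receptors, among them the progesterone receptor on which early pregnancy depends, and the ring-shaped TRiC complex built from the Cct proteins folds actin and tubulin. The endoplasmic reticulum and the mitochondrion have their own sets: BiP (Hspa5), Grp94 (Hsp90b1) and the disulfide isomerases in the former, and mortalin (Hspa9) with the Hsp60 and Hsp10 chaperonin (Hspd1 and Hspe1) in the latter. Transcription of some genes of the cytosolic and mitochondrial sets is raised by heat shock factors through heat shock elements. That of some genes of the endoplasmic reticulum set is raised by the unfolded protein response through endoplasmic reticulum stress elements.

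These promoter elements are shown because the choice by symbol did not use them, and the endoplasmic reticulum stress element was found only for members of that compartment. Windows from 250 bases before to 50 bases after the annotated start were read from RefSeq (GRCm38.p6) for 70 of the 85 members, with several starts for some. The heat shock element was searched on both strands as 3 alternating units, GAANNTTCNNGAA or TTCNNGAANNTTC, and was held by 0.603% of all 32851 windows. It was found in 6 of the 89 windows of members, for 4 members. Of these Hspd1 and Hspe1 are mitochondrial, and Hsph1, with its match after the annotated start, and Dnajb6 are cytosolic. The windows with a match are not independent, and they hold fewer distinct sites than windows. Overlapping windows of Dnajb6 hold the same site, as do those of Hsph1, and Hspd1 and Hspe1 share a site. The endoplasmic reticulum stress element was searched as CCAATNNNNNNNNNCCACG on both strands and was held by 0.119% of all windows. It was found in 4 of the 89 windows of members, for Hspa5, Hsp90b1, Pdia6 and Dnajc3, all of them genes of endoplasmic reticulum proteins. Matches are descriptions of letters and not evidence of binding. In the stretches below, written 5′ to 3′ on the gene's own strand, capitals mark the element:
Hspe1 (chr1:55088059-55088076, plus strand, 89 bases before the start, with 2 overlapping matches and shared in reverse with Hspd1): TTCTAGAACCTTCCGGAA
Dnajb6 (chr5:29735852-29735864, plus strand, in an annotated exon of the gene): GAATCTTCCGGAA
Hspa5 (chr2:34772025-34772043, plus strand, 65 bases before the RefSeq start, in an exon of a longer annotated transcript): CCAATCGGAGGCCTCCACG
Pdia6 (chr12:17266476-17266524, plus strand, 98 bases before the start): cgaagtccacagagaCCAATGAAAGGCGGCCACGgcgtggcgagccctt
Dnajc3 (chr14:118937812-118937860, plus strand, 105 bases before the start): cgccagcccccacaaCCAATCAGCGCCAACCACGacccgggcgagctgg
Hsp90b1 (chr10:86705518-86705671, minus strand, with matches 212 and 107 bases before the start, the nearer on the opposite strand): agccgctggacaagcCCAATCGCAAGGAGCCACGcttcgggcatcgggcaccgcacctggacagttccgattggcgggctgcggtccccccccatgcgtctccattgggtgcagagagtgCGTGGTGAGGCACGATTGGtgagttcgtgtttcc

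As a set the members lay close to the other genes, with 1 of 74 called higher and 3 called lower. Among all 12165 genes 2.68% were called higher and 6.22% lower, so neither count stands above the background. At 1.5-fold 2 members were higher and 15 lower, against 7.04% and 23.4% of all genes. A log2 ratio above 0 was seen in 18 of 74 members (24.3%) and in 29.6% of all genes. The median of the members was -0.30, 0.04 below that of all genes. Together they made up 1.08% of the summed FPKM of f/f and 0.951% of that of ed/ed. Of the 11 members that did not pass the filter, 6 were listed at 0 in both libraries (Cct8l1, Dnajb7, Dnajb8, Dnajc5g, Hspb3 and Pdia2), and Cct6b, Dnajb13, Dnajc6, Hspa12a and Hspb9 were at most at 0.719 FPKM. Cct6a, the zeta subunit of TRiC, is not analysed here.

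The called members were all low or moderate J protein genes. Dnajc24, whose protein acts in diphthamide synthesis on elongation factor 2 (chromosome 2, 105966709 to 106003549, GRCm38), was at 9.86 and 4.24 FPKM. Its log2 ratio was -1.05, from an estimated 169 and 68 fragments, and the plain ratio of 0.430 had a 95% exact counting interval of 0.318 to 0.570. Dnajb3, a class B J protein known from testis (chromosome 1, 88204732 to 88205782), was at 3.75 and 1.32 FPKM, a log2 ratio of -1.03 from 54 and 18 fragments, with an interval of 0.196 to 0.614 around the plain ratio of 0.352. Both calls were lost under each of the 4 other scalings, where their log2 ratios lay between -0.98 and -0.81. The other two calls rest on a value listed at 0, for which no fold is given. Dnajc22 stood at 1.01 FPKM in f/f but is listed at 0 in ed/ed, and Dnajc5b, a cysteine string protein gene of testis, is listed at 0 in f/f but stood at 1.13 FPKM in ed/ed. Exons of Dnajc24 overlap Dcdc5, and those of Dnajc5b overlap 1700064H15Rik, each on the other strand. Male germ cell markers (Tnp1, Tnp2, Prm1, Prm2 and Ddx4) summed to 0.0857 and 0.391 FPKM, with 4 of 5 at 0 in each library. Intervals cover counting error only.

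Grouped by the compartment of the protein, the members differed in level and in ratio. Cytosolic members summed to 3583 and 2648 FPKM, a ratio of 0.739. Those of the endoplasmic reticulum summed to 1124 and 1046 (ratio 0.931), and mitochondrial members to 715 and 806 (ratio 1.13). The sum over all genes had a ratio of 0.941, close to that of the endoplasmic reticulum. The median log2 ratio was -0.35 over 35 cytosolic members, -0.24 over 17 of the endoplasmic reticulum and 0.18 over 8 of the mitochondrion. Relative to all genes these medians were -0.09, 0.02 and 0.44, and with a pseudocount of 5 FPKM -0.16, -0.0089 and 0.33. The 8 mitochondrial members were all above the median of all genes (Dnajc19 by 0.0046), as were 9 of 17 of the endoplasmic reticulum and 11 of 35 of the cytosol, where by construction 6082 of 12165 genes are. The order of the 3 compartments was the same under the 4 other scalings and with the trend against transcript length removed, where the medians were -0.17, 0.04 and 0.28. No test of the difference between compartments was made, since genes are not replicates. The remaining 14 expressed members, of nucleus, vesicles, cilia or no firm assignment, had a median of -0.31.

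**Figure D1:**
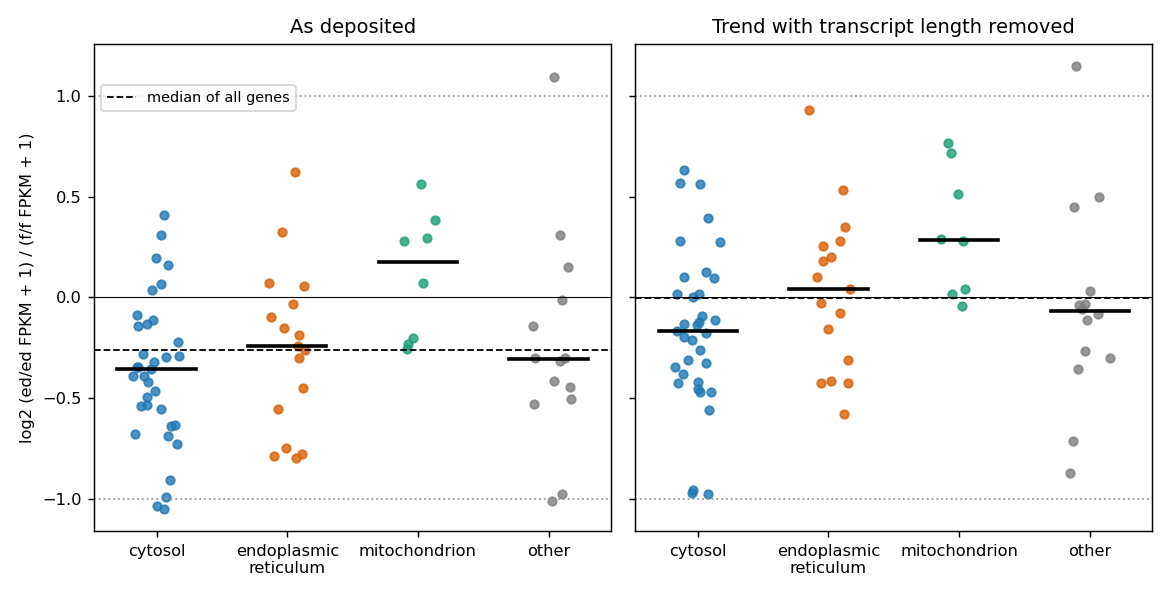
Log2 ratio of ed/ed over f/f for each of the 74 expressed members (points) by compartment of the protein, as deposited (left) and with the trend against transcript length removed (right); black bars are group medians, the dashed line is the median of all genes compared and dotted lines mark 2-fold. The mitochondrial median is 0.18 on the left and 0.28 on the right, above that of the cytosol at -0.35 and -0.17.

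**Figure D2:**
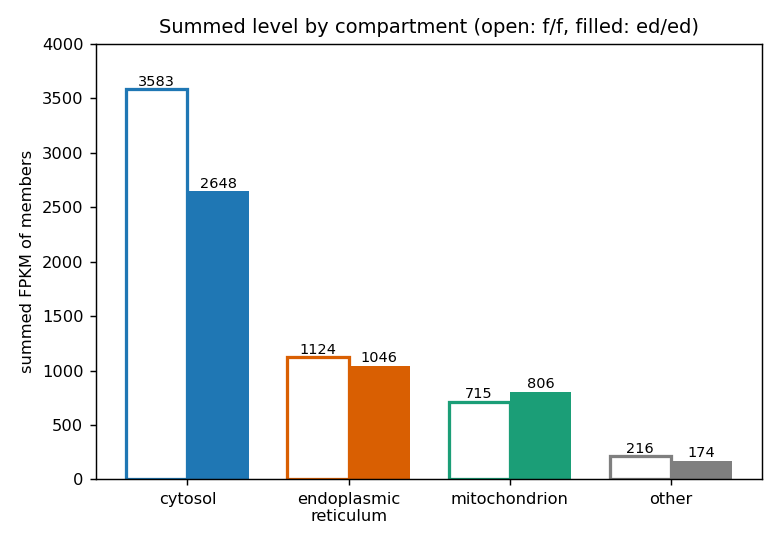
Summed FPKM of the members of each compartment in the f/f library (open bars) and the ed/ed library (filled bars), 1 library each and so without error bars. The cytosolic sum is 3583 in f/f and 2648 in ed/ed, whereas the mitochondrial sum is 715 and 806.

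The cytosolic sum was carried by a few genes. Hsp90ab1, the constitutive Hsp90 (ENSMUSG00000023944, chromosome 17, 45567775 to 45573271), was the most abundant member in both libraries, at 949 and 723 FPKM. Hspa8, the constitutive Hsp70 (ENSMUSG00000015656, chromosome 9, 40800984 to 40810087), was at 875 and 547 FPKM, a log2 ratio of -0.68. Hspb1, the small heat shock protein Hsp27 (ENSMUSG00000004951, chromosome 5, 135887919 to 135889563), was at 169 and 84.4 FPKM, a log2 ratio of -0.99, just short of the 2-fold rule. These 3 genes, picked with their values known, held 55.6% of the cytosolic sum in f/f and 68.3% of its difference. The cytosolic Hsp90aa1, at 187 and 170 FPKM, was more abundant than Hspb1 and is not among them. The share of the difference thus depends on the choice. Without these 3 genes the remaining 39 cytosolic members summed to 1591 and 1294 FPKM, a ratio of 0.813. On the log2 scale that is -0.30, near the median gene at -0.26, while the sum over all genes had a ratio of 0.941. Hspa8 and Hsp90ab1 have many processed pseudogene copies, so how their reads were assigned is uncertain. The counting interval of the plain ratio was 0.614 to 0.636 for Hspa8, 0.750 to 0.773 for Hsp90ab1 and 0.463 to 0.540 for Hspb1.

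**Figure D3:**
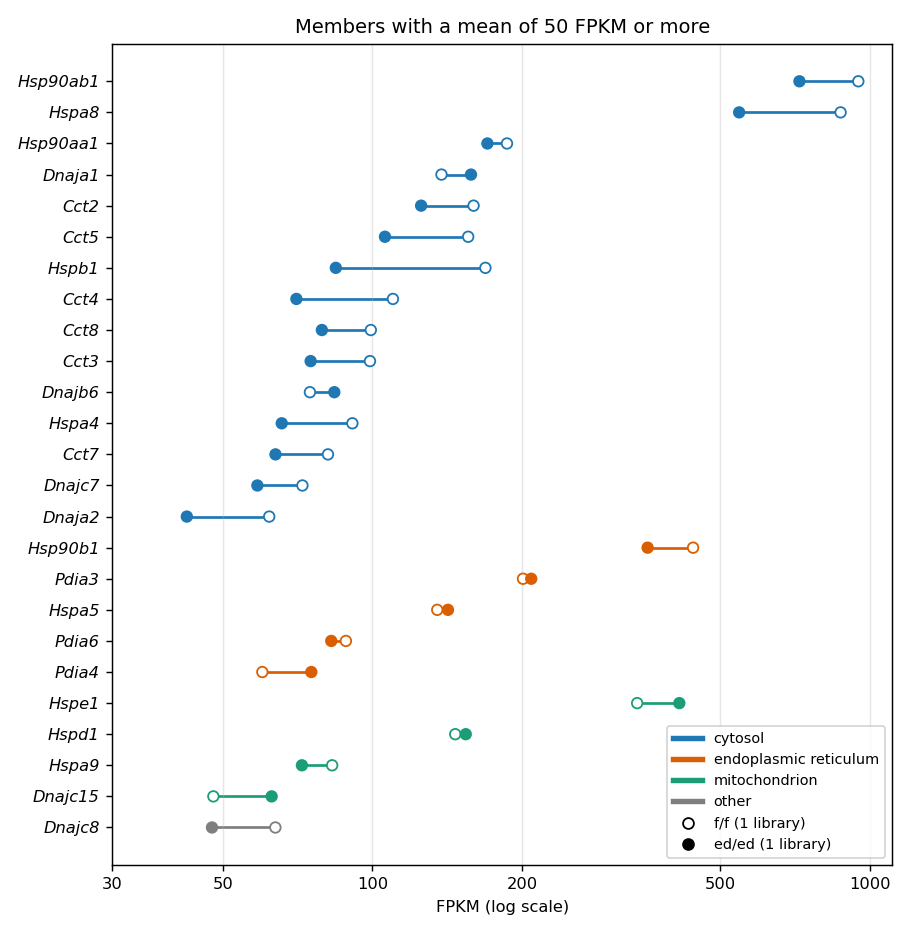
FPKM (log axis) of the 25 members with a mean of at least 50 FPKM in the f/f library (open circles) and the ed/ed library (filled circles), coloured by compartment and ordered by mean level within it. Of 15 abundant cytosolic members 13 are lower in ed/ed, with Dnaja1 and Dnajb6 higher. Of 5 of the endoplasmic reticulum 2 are lower, and of 4 of the mitochondrion 1. Over all 25 members 17 are lower, where 8564 of the 12165 genes compared are.

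Among the Hsp70 genes, 10 of 12 expressed members had a log2 ratio below 0, as had 8564 of the 12165 genes compared. Of the 12, 9 had a ratio under that of the median gene, and the family median was -0.44. Relative to all genes that median was -0.18, and it was between -0.18 and -0.16 under the 4 other scalings, but -0.10 with the filter at 5 FPKM and -0.12 with a pseudocount of 5 FPKM. Hspa1a and Hspa1b encode the stress-inducible Hsp70 and are nearly identical copies, so reads may be split between them arbitrarily. Hspa1a was at 7.95 and 5.35 FPKM, Hspa1b at 27.7 and 20.5, and their sum at 35.7 and 25.8. In both libraries the inducible pair was thus far below the constitutive Hspa8. The exchange factor gene Hspa4 was at 91.2 and 65.7 FPKM, its relative Hspa4l at 3.54 and 1.42, and Hsph1 (Hsp105), of the same group, at 29.9 and 24.4. Hspa14, a ribosome-associated Hsp70, was at 22.8 and 18.5 FPKM. Hspa2, abundant in spermatocytes, was at 6.28 and 6.61, and Hspa1l at 1.998 and 0.935.

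Hspa12b, an atypical Hsp70 of endothelium, was at 6.75 and 2.94 FPKM, a log2 ratio of -0.98. All 6 endothelial markers (Pecam1, Cdh5, Tek, Tie1, Eng and Kdr) were also called lower, their sum being 139 and 49.9 FPKM with 0 at 0 in either library. Their part in the value of Hspa12b was not tested, and in whole tissue fewer cells of a type and less RNA per cell cannot be told apart. Stroma markers were lower as well, with 5 of 10 called lower, 0 of 10 above the median of all genes, and sums of 1198 and 574 FPKM. Epithelium markers summed to 1676 and 1642 FPKM, with 3 of 6 above the median of all genes. That sum joins markers of opposite direction. Log2 ratios were 0.59 for Cdh1, 0.91 for Cldn7 and 0.56 for Epcam, but -0.48 for Krt8, -0.44 for Krt18 and -0.80 for Krt19. Of the labelled tissue's defining cell types none was missing, as 0 of the 32 markers of smooth muscle, stroma, endothelium and epithelium were at 0.

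Small heat shock proteins hold unfolding proteins in oligomers until Hsp70 can act, and several are typical of muscle. Hspb8, which works with Bag3 in selective autophagy, was at 62.4 and 37.3 FPKM, a log2 ratio of -0.73. Hspb1 and Hspb8 were the 2 most abundant members of the family and both had ratios under that of the median gene. The muscle genes Hspb2 and Hspb6 were at 3.36 and 2.41 FPKM and at 3.26 and 3.01, with counting intervals that spanned a ratio of 1. Hspb7, best known from heart and skeletal muscle, was at 2.81 and 4.06 FPKM, the only member of the family above 0 as deposited, with an interval of 1.15 to 1.83 around a plain ratio of 1.44. Hspb11, which despite its name acts in transport along cilia, was at 27.0 and 26.8 FPKM. Smooth muscle markers were all above 0 (10 of 10), 1 of them called higher, and summed to 691 and 1116 FPKM. Of 7 skeletal muscle markers 3 were at 0 in each library and the list summed to 9.91 and 6.81 FPKM. Most of that sum was Acta1, at 9.28 and 5.96 FPKM, and the other 6 did not reach 1 FPKM in either library. What these cell types contribute to the small heat shock protein values was not tested. The related crystallin gene Cryab, whose exons overlap those of Hspb2 on the other strand, was at 10.8 and 14.1 FPKM.

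The Hsp90 genes all had log2 ratios below 0 as deposited, as had 8564 of the 12165 genes compared. Of the 3 genes 1 lay above the median gene and 2 below it. The inducible Hsp90aa1 was at 187 and 170 FPKM, a log2 ratio of -0.13 that is positive under 3 of the 4 other scalings. Hsp90ab1 lay at -0.39 and Hsp90b1 at -0.30. The constitutive gene was 5.09 times as abundant as the inducible gene in f/f and 4.24 times in ed/ed.

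The TRiC subunit genes differed in ratio. Counting intervals of the plain ratio were 0.609 to 0.671 for Cct4 and 0.760 to 0.837 for Cct8. All 6 Cct genes listed at 1 FPKM or more had a log2 ratio under that of the median gene, from -0.64 to -0.32. Their mean was -0.43, with an SD across these 6 genes of 0.13. Cct2 was at 160 and 125 FPKM, Cct5 at 156 and 106, and Cct4 at 110 and 70.3. Cct8 was at 99.3 and 79.2 FPKM, Cct3 at 98.9 and 75.1, and Cct7 at 81.4 and 63.8. The most abundant subunit gene was 1.96 times the least abundant in both libraries, and Cct2 was highest and Cct7 lowest in each. Relative to all genes the family median was -0.11, between -0.10 and -0.08 under the 4 other scalings and -0.19 with the length trend removed or with a pseudocount of 5 FPKM. Tcp1, the alpha subunit, is not caught by the symbol rule and was at 103 and 90.7 FPKM, a log2 ratio of -0.19. Unlike the 6 Cct genes it lay above the median gene, by 0.07.

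Of the abundant soluble members of the endoplasmic reticulum, Hspa5, Pdia3 and Pdia6 were close in both libraries as deposited, whereas Hsp90b1 was lower and Pdia4 higher in ed/ed. Hspa5 (BiP, chromosome 2, 34771970 to 34777547) was at 135 and 142 FPKM, and Pdia3 (ERp57, the partner of calnexin and calreticulin) at 201 and 209. Pdia6 was at 88.5 and 82.7 FPKM, and Pdia4 (ERp72) at 60.1 and 75.4, a log2 ratio of 0.32. Hsp90b1 (Grp94), the most abundant member of the compartment, was at 442 and 358 FPKM. Without Hsp90b1 the other 17 members summed to 682 and 688 FPKM, so the difference in the sum rests on that gene. With it the ratio of the compartment was 0.931, close to the 0.941 of all genes, and Hsp90b1 lay 0.04 below the median gene. Pdia5 had the lowest ratio of its family, at 8.08 and 4.42 FPKM with a log2 ratio of -0.75. Relative to the median gene Hspa5 lay at 0.33, Pdia3 at 0.31, Pdia4 at 0.58, Pdia6 at 0.16 and Pdia5 at -0.49. The Pdia family median was -0.02, which is 0.24 above that of all genes. It was 0.25 to 0.27 above under the 4 other scalings, 0.19 with the length trend removed and 0.15 with a pseudocount of 5 FPKM. The 4 genes with a stress element had log2 ratios of 0.07 (Hspa5), -0.30 (Hsp90b1), -0.10 (Pdia6) and -0.15 (Dnajc3), against -0.24 for the median of the compartment.

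J proteins of the endoplasmic reticulum comprise a soluble and a membrane set. Of the soluble ones, Dnajb11 (ERdj3) was at 38.9 and 37.95 FPKM, Dnajb9 (ERdj4) at 23.2 and 19.5, Dnajc3 (p58IPK) at 17.98 and 16.1, and the reductase gene Dnajc10 (ERdj5) at 23.7 and 17.1. These 4 log2 ratios ran from -0.45 to -0.03. Membrane J protein genes spread more widely. Dnajc1 (ERdj1), which binds ribosomes, was at 17.5 and 9.73 FPKM, Dnajc16 at 4.69 and 2.28, Dnajc18 at 6.35 and 3.28, Dnajb12 at 11.5 and 7.52, and Dnajb14 at 5.33 and 4.57. Dnajc14, which helps receptors leave the compartment, was the exception at 32.3 and 50.4 FPKM. Its log2 ratio of 0.62 was the highest among members not listed at 0 in either library, and its exons overlap those of Sarnp on the same strand and of Ormdl2 and Tmem198b on the other, so that reads of these genes may be mixed.

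Mitochondrial members were led by the chaperonin genes. Hspe1 (Hsp10, ENSMUSG00000073676, chromosome 1, 55088132 to 55091307) was at 341 and 414 FPKM. Hspd1 (Hsp60, ENSMUSG00000025980, chromosome 1, 55077835 to 55088243) was at 147 and 154 FPKM. Both genes lie head to head, and the heat shock element printed above lies between their starts in some annotated transcripts and within an Hspd1 exon in others. Their log2 ratios were 0.28 and 0.07. Hspa9 (mortalin), the Hsp70 that pulls proteins through the inner membrane, was at 83.0 and 72.2 FPKM, a log2 ratio of -0.20. Without Hspe1 the mitochondrial sum was 374 and 391.6 FPKM, a ratio of 1.05.

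The 5 mitochondrial J protein genes, all above the median gene in ratio, had a median log2 ratio of 0.29. Dnajc30 was at 19.3 and 29.1 FPKM, Dnajc15, of the inner membrane, at 47.9 and 62.7, and Dnaja3 (Tid1) at 22.1 and 27.3. Dnajc19, of the import motor, was at 37.9 and 31.6 FPKM, and Dnajc11, which shapes cristae, at 17.3 and 14.6. The counting intervals of the plain ratio were 1.34 to 1.69 for Dnajc30, 1.26 to 1.36 for Dnajc15 and 1.13 to 1.35 for Dnaja3. Exons of 5 of the 8 mitochondrial members overlap another gene, Bud23 for Dnajc30, Coro7 and Vasn for Dnaja3, Fxr1 for Dnajc19, and each other for Hspd1 and Hspe1. The 3 without an overlap were Dnajc15, Dnajc11 and Hspa9, with log2 ratios of 0.38, -0.23 and -0.20. With the length trend removed 7 of the 8 lay above 0.

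The 25 expressed J protein genes of the cytosol and other places were mixed in direction, with 11 of 25 above the median gene. Dnaja1, the most abundant J protein gene, was at 138 and 158 FPKM, whereas its relative Dnaja2 was at 62.0 and 42.3. Dnajb6, a suppressor of polyglutamine aggregation, was at 74.9 and 83.8 FPKM, Dnajc7 at 72.3 and 58.7, and Dnajc8, of the spliceosome, at 63.8 and 47.6. The heat-inducible Dnajb1, the usual partner of Hspa1b, was at 13.8 and 12.5 FPKM with a counting interval that reached 1 (0.806 to 1.01). Over all 40 expressed J protein genes the median was -0.25, which is 0.01 relative to all genes and -0.03 with the length trend removed, and 21 were above it and 19 below. The exons of Dnaja1 overlap those of Smu1 on the other strand.

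Other genes of the folding machinery were taken from lists written out from textbook knowledge, and their calls are to be read against the 2.68% of all genes called higher and 6.22% called lower. Of 25 expressed cochaperones of Hsp70 and Hsp90, 0 were called higher and 1 lower, Cdc37l1 at 23.5 and 9.42 FPKM, and the list median was -0.09. The most abundant, Fkbp4, an Hsp90 partner needed for progesterone receptor activity, was at 215 and 210 FPKM. Fkbp5, a glucocorticoid- and progesterone-induced relative chosen after its values were seen, was at 25.1 and 12.4 FPKM, a log2 ratio of -0.96. Of 9 genes of prefoldin, its partners and Tcp1, 0 were called, and Pfdn5 was at 285 and 333 FPKM. Of the list of heat shock factors and their binding proteins 3 of 7 genes were expressed and 0 called. Hsf1 was at 12.1 and 14.4 FPKM and Hsf2 at 9.82 and 6.88. The most abundant, Hsbp1, encodes a binding protein and was at 102 and 109 FPKM.

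Of 25 other expressed folding factors of the endoplasmic reticulum, 0 were called higher and 2 lower, with a median of -0.28. The thioredoxin-domain gene Txndc16 was at 28.1 and 8.58 FPKM, and Tmx4 at 4.05 and 1.34. The collagen chaperone Serpinh1, the most abundant, was at 297 and 214 FPKM. Of 11 expressed sensors and factors of the unfolded protein response 1 was called lower, Atf6b at 27.7 and 13.2 FPKM, and the most abundant, Atf4, was at 81.1 and 115. Of 15 expressed genes of degradation from the endoplasmic reticulum 0 were called, and Vcp was at 115 and 87.0 FPKM. Of 16 other mitochondrial folding, import and protease genes 0 were called, the median was -0.12, 11 were above the median gene, and Tomm22 was at 121 and 141 FPKM. Immediate early genes, read as a sign of tissue handling, had 0 of 7 called and a median of 0.29. That is 0.55 above the median of all genes, and 5 of the 7 lay above it. Whether handling differed between the libraries was not tested.

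**Figure D4:**
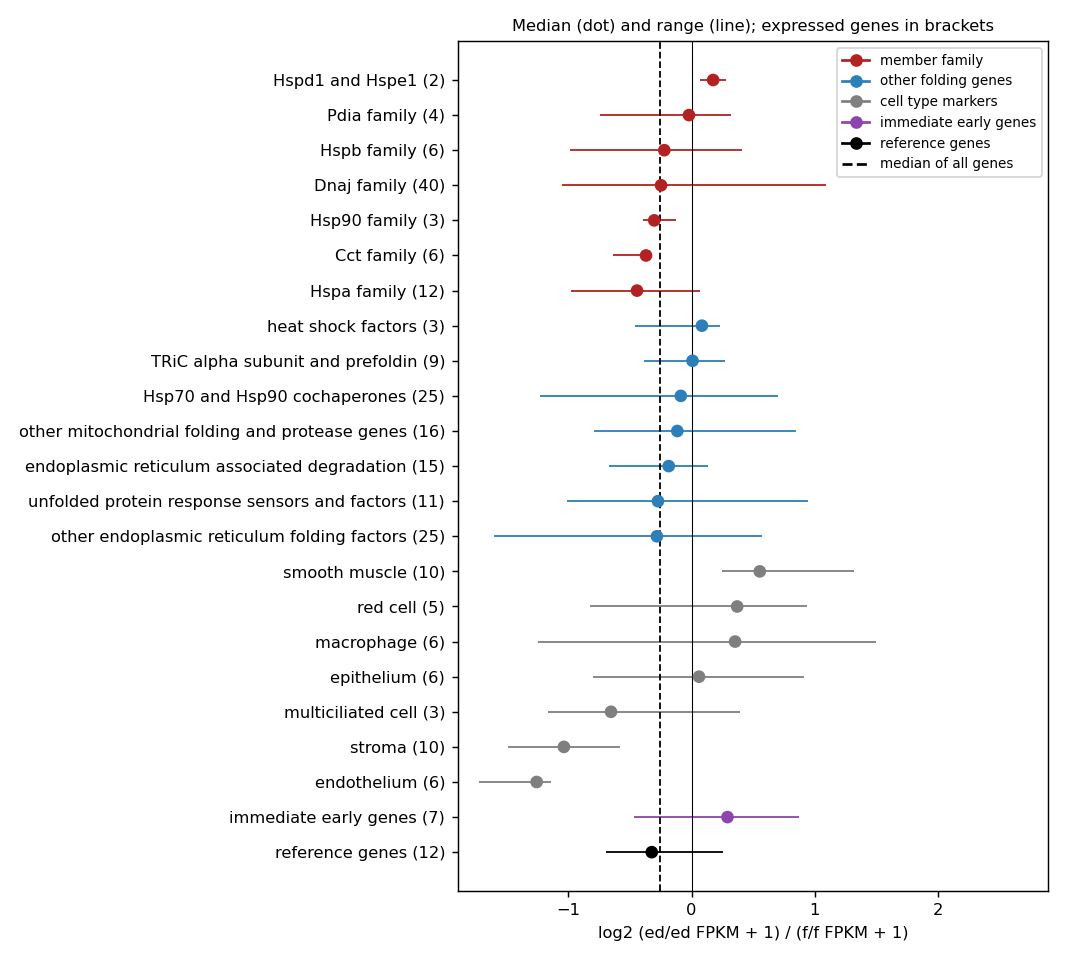
Median (dot) and range (line) of the log2 ratio for each member family, other list of folding genes, cell type marker list, immediate early genes and reference genes; the number of expressed genes is in brackets and the dashed line is the median of all genes at -0.26. The member families lie between -0.44 (Hspa) and 0.18 (Hspd1 and Hspe1), inside the span from endothelial markers at -1.26 to smooth muscle markers at 0.55.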

How the data were processed

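The deposited tables give 1 value per gene with Ensembl identifier and symbol. They were taken as FPKM computed by the authors: the headers name no unit, but the submitters' processing notes name HISAT2 2.2.1 and Cufflinks 2.2.1, and the latter writes FPKM. The notes list both mm9 and mm10, with no role for either; annotation, strand setting and multi-read handling: not given in the sources used here. Libraries were made from TRIzol RNA with a TruSeq kit, per the labels' protocols. FPKM depends on transcript length and on the most abundant genes, and an exact 0 can be a failed estimate.

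Ratios used a pseudocount of 1 FPKM and a filter of 1 FPKM in either library. Positions and lengths (longest coding transcript) came from GENCODE M21 on GRCm38, matched by identifier for all 85 members; they locate genes, not reads. Depth came from genes with 1 annotated transcript over 1000 nt, as the spacing of FPKM times length reduced by 270 nt, the offset of highest concentration. Intervals are exact (Clopper-Pearson, 95%) on fragments estimated from it. The length trend was a lowess fit (fraction 0.3, statsmodels 0.14.6). Scripts were tested on simulated data. Compartments and lists came from textbook knowledge, and the members and lists were chosen with earlier results of these data known. Any member may be named; of other lists, called genes (at most 4), the most abundant gene, Tcp1 and Cryab; any further gene is marked as picked with its values known.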

Additional observations from a re-analysis of the deposited data

How the results depend on the processing

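The count of members called higher, 1 as reported, was 0 with a pseudocount of 5 FPKM, with a filter at 5 FPKM and without genes listed at 0 (added with the data already seen), and 2 under the 1.5-fold rule. The count called lower, 3 as reported, was 7 with a pseudocount of 0.1 FPKM, 0 with a pseudocount of 5 FPKM or the length trend removed, 1 with a filter at 5 FPKM or under each of the 4 scalings, and 15 under the 1.5-fold rule. The median over members, -0.30, was -0.32 and -0.23 with pseudocounts of 0.1 and 5, -0.26 with no filter, -0.29 with a filter at 5 FPKM, -0.21, -0.0198, -0.0917 and -0.0228 with scaling by sum, median ratio, upper quartile and reference genes, and -0.0668 with the length trend removed. It lay 0.02 to 0.06 below the median of all genes in these settings other than no filter, where unexpressed genes bring that median to 0 (relative to it the cytosol was then at -0.31, the endoplasmic reticulum at -0.21, the mitochondrion at 0.18, Hspa at -0.42, Cct at -0.35 and Dnaj at -0.23), and it was nearly unmoved without genes listed at 0. With no replicate no spread is available, so any move of the median in its second decimal is given. The Hspb family median lay 0.04 above that of all genes as reported and 0.47 below it with the filter at 5 FPKM, because only Hspb1, Hspb8 and Hspb11 remain. Relative to it the value was -0.0041 and -0.0036 with scaling by median ratio and reference genes, and -0.19 with the length trend removed. Depth limits the low genes: for Hspb2, from 31 and 21 estimated fragments, the counting interval of the ratio ran from 0.393 to 1.29.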

Other observations

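Ratios between partner genes within a library, chosen after their values were seen and not affected by scaling, were as follows, f/f first. Hspa8 was 6.35 times as abundant as its J protein partner gene Dnaja1 in f/f and 3.46 times in ed/ed, and 63.2 and 43.9 times as abundant as Dnajb1. Hspa5 was 3.48 and 3.74 times as abundant as its partner Dnajb11. The ratio of BiP (Hspa5) to the cytosolic Hspa8 was 0.154 in f/f and 0.260 in ed/ed. Hspe1 was 2.32 and 2.69 times as abundant as Hspd1, whose proteins work together as a chaperonin and its lid, and Hsp90b1 was 3.27 and 2.52 times as abundant as Hspa5.

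Some genes outside the set had differences larger than most members and were also chosen after their values were seen. Mbtps1, the protease that activates Atf6, was at 56.7 and 110 FPKM, a log2 ratio of 0.94. Grpel2, an exchange factor of mitochondrial Hsp70, was at 6.98 and 13.3 FPKM. The cochaperone genes Ahsa2 and Bag2 were at 18.8 and 31.2 FPKM and at 6.76 and 11.3, whereas St13 and Cdc37 were at 122 and 71.3 and at 107 and 62.0. No replicate bears on any of these values.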
